A study of Cavia porcellus with 10 samples.

Results

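Matricellular proteins are secreted into the extracellular matrix without forming its fibres or sheets, and act instead on how cells attach to the matrix and on how its fibres are assembled. Many of them are made in quantity during development, wound healing and tissue remodeling and are scarce in resting adult tissue. They bind integrins and other cell surface receptors as well as collagen, growth factors and proteases. Here 10 genes of this class were followed through pregnancy in the cervix of the guinea pig, and each was found by its gene name in exactly 1 of the 25028 genes of the expression table. SPARC (ENSCPOG00000025242) and SPOCK2 (ENSCPOG00000008188) belong to the SPARC family. TNC (ENSCPOG00000003429) is a tenascin. THBS1 (ENSCPOG00000014779), THBS2 (ENSCPOG00000027034) and THBS4 (ENSCPOG00000004926) are thrombospondins. POSTN (ENSCPOG00000001209) is periostin, CTGF (ENSCPOG00000019677) and CYR61 (ENSCPOG00000010120) are CCN proteins, and SPP1 (ENSCPOG00000014587) is osteopontin.

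The tissue came from Hartley guinea pigs, and RNA with a poly A tail was sequenced from 1 animal per library. The 3 non-pregnant (NP) females were taken as they entered estrus, on the day after the membrane that closes the vulva had opened. The 3 mid-term (MT) animals were at 43.6 ± 0.5 days of gestation and the 4 late-term (LT) animals at 65.2 ± 1.2 days (SD). Expression is given as TPM, the share of all transcripts after correction for their length, so that levels of different genes can be set side by side. Each library held between 18730665 and 27881572 reads counted on genes.

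Differences between the stages were tested by limma on log2(TPM + 1) in 1 fit over the 12645 genes whose stage mean reached 3 TPM in any stage, and a gene was called at an adjusted P under 0.05. All log2 fold changes are on this scale, as later minus earlier stage, and SE is their standard error. The 3 comparisons share animals and are not independent of each other. Exact permutation tests on square-root TPM cannot give a P below 0.1 between NP and MT, or below 0.0286 in the other 2 comparisons. All 10 genes passed the filter, 9 of them in every stage, and POSTN only through its level in NP.

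Of 10 markers fixed for cervix, 6 had an entry by that name and all of these reached 3 TPM in at least 1 stage, among them ESR1, PGR and HOXA13. Their levels differed between the stages. Limma called 1 higher and 1 lower from NP to MT, against 6.27% and 12.2% of all genes. It called 0 higher and 4 lower from MT to LT, against 6.73% and 22.7%. The same counts were found from NP to LT, against 11.2% and 41.9%. Their median log2 fold change was -0.35, -0.86 and -1.30 in the 3 comparisons. NP replicate 1 stood apart from the other NP animals. Its 9 smooth muscle markers summed to 31029 TPM, against 10652 and 8249 in the other NP animals, and its 8 squamous epithelium markers summed to 3769 TPM, against 1236 and 1153. Tests were repeated without this animal. In that fit 25.8%, 32.3% and 49.8% of all genes were called lower between NP and MT, MT and LT, and NP and LT, and 7.22%, 9.78% and 11.3% higher.

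SPARC was by far the most abundant of the 10 genes at every stage. The 10 genes summed to between 2189.7 and 4907 TPM per animal, which is 0.219% to 0.491% of all transcripts, and SPARC made up 73.5% to 84.6% of the sum. SPARC ranked 33 among all genes by its mean level in NP, 63 in MT and 48 in LT. In LT the next levels were those of TNC, THBS2, THBS4, CYR61 and THBS1, each overlapping its neighbour in this order. SPOCK2 was second in MT and ninth in LT, and POSTN was last in every stage.

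**Figure D1:**
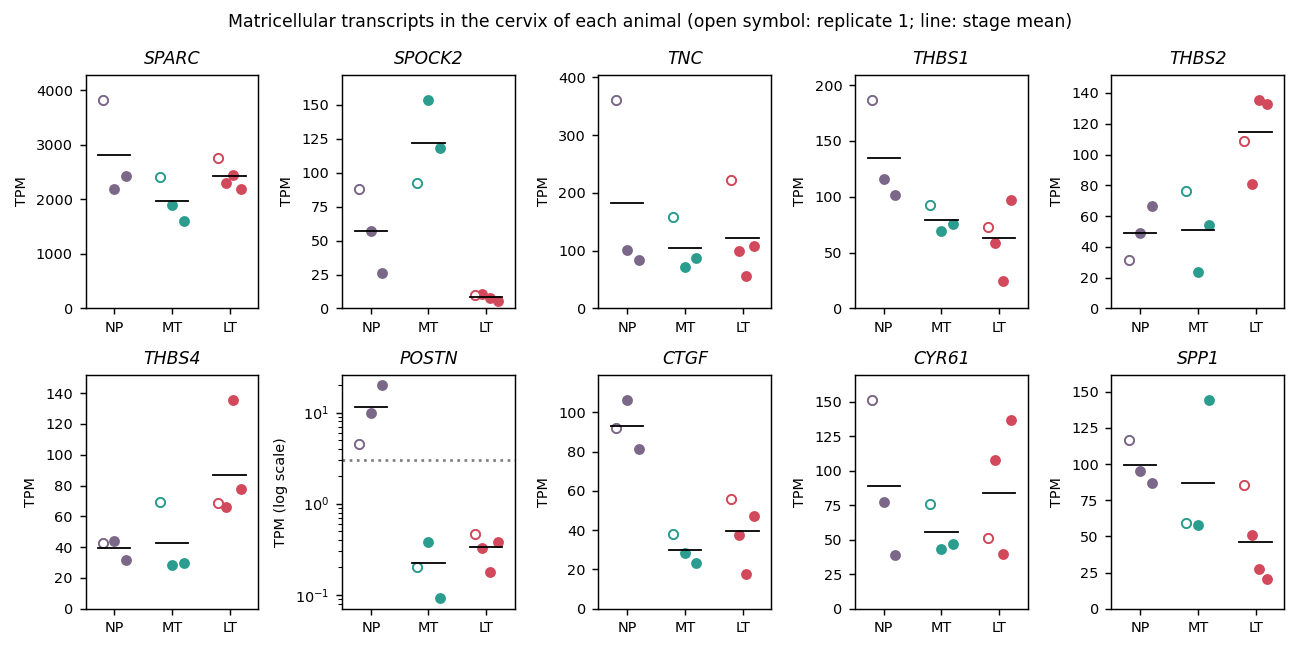
TPM of the 10 matricellular genes in each animal (points; open symbols are replicate 1 of each stage; lines are stage means) in the non-pregnant (NP), mid-term (MT) and late-term (LT) cervix. POSTN is on a log axis with the 3 TPM level dotted and lies above it only in the NP animals, while all 4 LT animals lie above all NP animals for THBS2 and THBS4.

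Between NP and MT, 2 of the 10 genes were called, POSTN and CTGF, both lower in MT. This is a share close to the 18.5% of all tested genes that were called. Limma called 0 of the 10 higher in this comparison, and 1, SPOCK2, was higher at an unadjusted P under 0.05. On the read counts, edgeR called 2 of the 10 (against 18.0% of all genes) and 0 higher, and DESeq2 called 3 (against 24.7%) and 1 higher, SPOCK2. When NP replicate 1 was left out, limma called 3 of the 10, against 33.0% of all genes, with SPOCK2 higher (adjusted P = 0.0135). For 4 genes the animals of the stages did not overlap, which was so for 34.9% of all genes. Between MT and LT, 3 of the 10 were called, THBS2 and THBS4 higher and SPOCK2 lower, against 29.4% of all genes. The calls were 3 in edgeR and 3 in DESeq2, against 29.0% and 36.2% of all genes, and the same 3 genes were called when NP replicate 1 was left out, against 42.1%. The animals did not overlap for 2 of the 10, against 46.3% of all genes. Between NP and LT, 7 of the 10 were called, against 53.1% of all genes, with THBS2 and THBS4 higher and THBS1, CTGF, POSTN, SPOCK2 and SPP1 lower. The animals did not overlap for the same 7 genes, against 52.4% of all genes.

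The median log2 fold change of the 10 genes was -0.50 between NP and MT, 0.21 between MT and LT and -0.80 between NP and LT. Over all tested genes these medians were -0.14, -0.16 and -0.28, so each change stands against a shift of that size. As tested, 11.2% of all genes were called higher and 41.9% lower between NP and LT, and after scaling by the median ratio 26.3% were higher and 23.4% lower. Between MT and LT these shares were 6.73% higher and 22.7% lower as tested, and 14.6% and 14.8% after the scaling. Between NP and MT they were 6.27% and 12.2%, and 10.9% and 7.15% after it. From NP to LT, edgeR and DESeq2 on the read counts each called 5 of the 10, against 49.4% and 53.7% of all genes, and in both THBS1 and SPP1 were lost. In limma, leaving out NP replicate 1 gave 4 of the 10 from NP to LT, against 61.1% of all genes, as THBS1, THBS2 and SPP1 were lost.

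**Figure D2:**
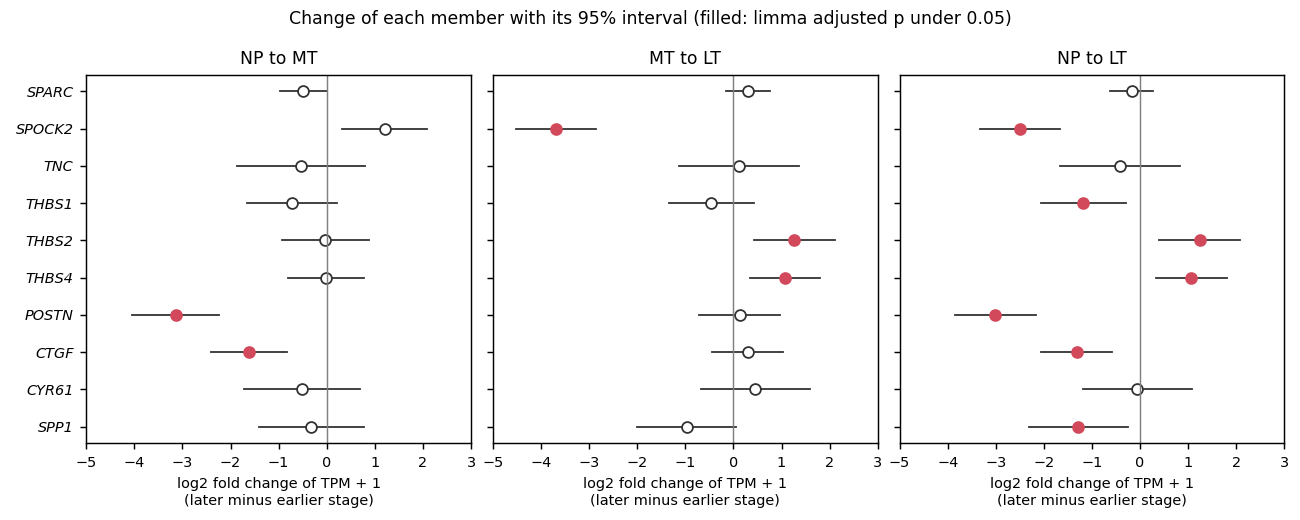
Log2 fold change of TPM + 1 of each gene (points) with its 95% interval (lines) in the 3 comparisons, filled where the limma adjusted P is under 0.05. POSTN and SPOCK2 changed most, POSTN by -3.14 between NP and MT and SPOCK2 by -3.70 between MT and LT, and the intervals of SPARC, TNC and CYR61 lie close to or across 0 throughout.

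The thrombospondins changed in composition. THBS1 and THBS2 form trimers, bind CD36 and CD47 and restrain the growth of blood vessels, and THBS1 also activates latent TGF-beta. THBS4 forms pentamers and is found in tendon and muscle matrix. THBS2 was 31.6, 49.2 and 66.5 TPM in the NP animals, 76.2, 23.4 and 54.3 TPM in the MT animals and 109, 81.2, 136 and 133 TPM in the LT animals. All LT animals were above every other animal. From MT to LT the mean of THBS2 rose from 51.3 ± 26.5 TPM (SD, n = 3) to 115 ± 25.3 TPM (SD, n = 4), or by 1.27 on the log2 scale (SE 0.38, limma adjusted P = 0.0312; exact permutation P = 0.0571). In bulk tissue, a change in the number of cells of a type and a change in the RNA per cell cannot be told apart.

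THBS4 was 42.7, 44.2 and 31.9 TPM in NP, 69, 28.5 and 30 TPM in MT and 68.6, 65.9, 136 and 77.9 TPM in LT. The LT animals were above all NP animals, but MT replicate 1 reached into their range. From MT to LT, THBS4 rose by 1.07 on the log2 scale (SE 0.33, limma adjusted P = 0.0352; exact permutation P = 0.0857). From NP to LT the change was 1.07 for THBS4 (SE 0.33, limma adjusted P = 0.0211; exact permutation P = 0.0286) and 1.24 for THBS2 (SE 0.38, limma adjusted P = 0.0196; exact permutation P = 0.0571). Neither gene was called between NP and MT, with log2 fold changes of -0.03 for THBS2 (95% interval -0.93 to 0.87) and -0.01 for THBS4 (-0.80 to 0.78).

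THBS1 went the other way. It was 187, 116 and 102 TPM in NP, 92.3, 69.5 and 75.4 TPM in MT and 72.7, 59, 24.8 and 97.4 TPM in LT. Every NP animal was above every animal of the other stages, while MT and LT overlapped. THBS1 fell from NP to LT by 1.18 on the log2 scale (SE 0.39, limma adjusted P = 0.0287; exact permutation P = 0.0571). The change from NP to MT was not called, at -0.72 (95% interval -1.66 to 0.22, limma adjusted P = 0.246).

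The exact permutation test of the F statistic over the 3 stages gave P = 0.0314 for THBS1, 0.0305 for THBS2 and 0.0405 for THBS4 on square-root TPM. On log2(TPM + 1) the exact permutation P was 0.0690, 0.0452 and 0.0510. Leaving out single animals raised the exact permutation P to as much as 0.204 for THBS1 (without NP replicate 1), 0.0857 for THBS2 and 0.139 for THBS4 (both without LT replicate 3). The rises of THBS2 and THBS4 from MT to LT were no longer called without MT replicate 2 (adjusted P of 0.106 and 0.140), without MT replicate 3 (0.0559 and 0.119), or without LT replicate 3 or 4, and that of THBS2 also without LT replicate 1 (0.0516). With no filter on low values the adjusted P was 0.0502 for THBS2 and 0.0550 for THBS4. From NP to LT, the adjusted P of THBS2 was 0.0667 without NP replicate 1 and that of THBS4 was 0.0771 without NP replicate 3. The fall of THBS1 was no longer called without NP replicate 1 (0.0936), NP replicate 2 (0.0573) or LT replicate 2 (0.0517), in edgeR or DESeq2 on the counts (0.116 and 0.0755), after median-ratio scaling (0.116) or with only the 2 stages fitted (0.0538).

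All 5 thrombospondin genes together, which adds THBS3 and COMP, the cartilage matrix member, summed to 231 to 285 TPM in NP, 146 to 274 in MT and 265 to 374 in LT. THBS1 made up 52.3% ± 11.6 of this sum in NP (SD, n = 3), 40.9% ± 6.90 in MT (SD, n = 3) and 19.4% ± 8.82 in LT (SD, n = 4). THBS2 held 19.9% ± 8.86, 24.5% ± 7.49 and 34.0% ± 2.91 in the same order. In NP the TPM of THBS2 was 0.169, 0.423 and 0.654 times that of THBS1, in MT 0.825, 0.336 and 0.719 times, and in LT 1.50, 1.37, 5.47 and 1.36 times. THBS2 was thus the more abundant of the pair in the 4 LT animals and in none of the others. This ratio was chosen after the values were seen and has no test. LT replicate 3 had the highest THBS2 and THBS4 and the lowest THBS1 of all 10 animals.

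**Figure D3:**
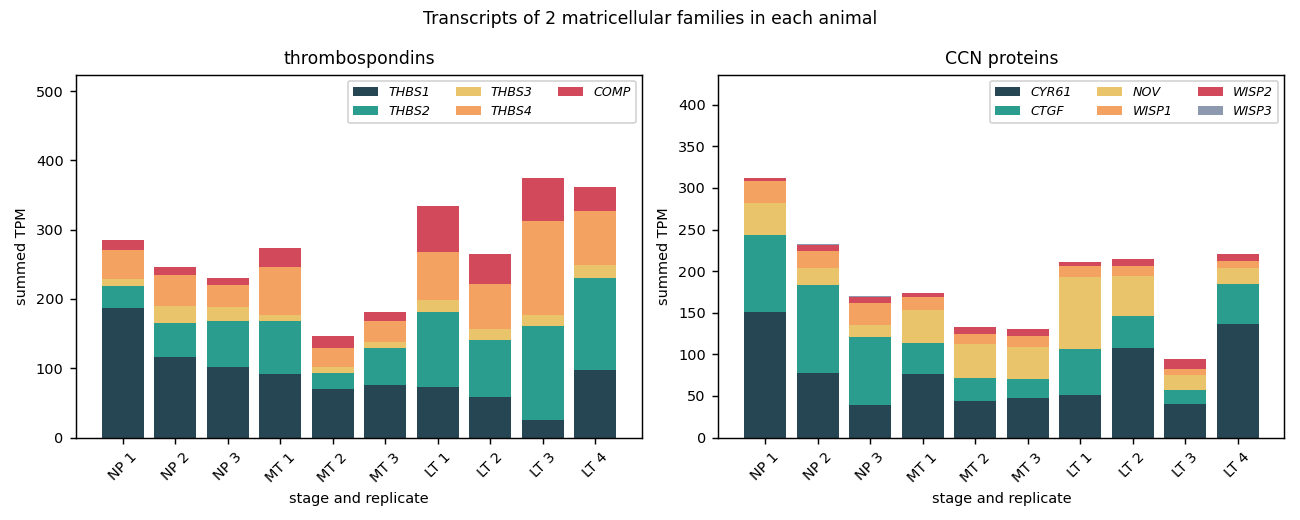
Stacked TPM of the 5 thrombospondin genes (left) and the 6 CCN genes (right) in each animal, by stage and replicate. The THBS1 part of the thrombospondin bar shrinks from a mean of 52.3% of the sum in NP to 19.4% in LT, and in the CCN bar CTGF goes from a mean of 40.9% in NP to 20.4% in MT.

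COMP was also higher in LT. It was 10.3 to 14.1 TPM in NP, 13.7 to 28.6 in MT and 35.6 to 66.7 in LT, with no overlap between MT and LT. COMP rose by 1.37 on the log2 scale from MT to LT (SE 0.27, limma adjusted P = 0.00668). THBS3 averaged 18.4 ± 7.50 TPM in NP, 8.32 ± 0.219 in MT and 17.0 ± 1.03 in LT (SD). It fell by 0.97 from NP to MT (SE 0.25, limma adjusted P = 0.0255) and rose by 0.95 from MT to LT (SE 0.24, limma adjusted P = 0.0160). Between MT and LT, 4 of the 5 thrombospondin genes were called higher, against 6.73% of all genes, and the calls of THBS2 and THBS4 among them depend on single animals as given above. THBS1 was not called, at a log2 fold change of -0.46 (95% interval -1.34 to 0.42).

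Marker lists of other cell types also differed between the stages. The 9 smooth muscle markers, all of which were measured, summed to 8249 to 31029 TPM in NP, 12741 to 19137 in MT and 19175 to 39686 in LT. The 3 highest sums were those of LT replicate 4 (39686 TPM), LT replicate 3 (38356 TPM) and NP replicate 1 (31029 TPM). The LT animals of these had the highest THBS2 and THBS4 of all animals, while NP replicate 1 had 31.6 TPM of THBS2, lower than every animal but MT replicate 2, and 42.7 TPM of THBS4. Between NP and LT, limma called 1 of the 9 markers higher and 0 lower (0 lower also at an unadjusted P under 0.05 and in edgeR and DESeq2), and 7 higher without NP replicate 1, and from MT to LT it called 1 higher, and 4 without this animal. Of all genes, 11.2% were called higher between NP and LT and 6.73% between MT and LT. Without NP replicate 1 these shares were 11.3% and 9.78%. The 8 squamous epithelium markers summed to 1153 to 3769 TPM in NP, 226 to 1509 in MT and 1697 to 3473 in LT, with no overlap between MT and LT. The median change of these 8 was -1.41 between NP and MT, 1.52 between MT and LT and 0.31 between NP and LT on the log2 scale. Limma called 3 of the 8 lower from NP to MT, against 12.2% of all genes. It called 2 higher from MT to LT and 3 lower from NP to LT, against 6.73% and 41.9%. Without NP replicate 1 it called 3 lower, then 5 higher and 1 lower, and last 2 higher and 3 lower. The shares of all genes in that fit were 25.8%, then 9.78% and 32.3%, and last 11.3% and 49.8%. The 7 endothelial markers with an entry summed to 166 to 222 TPM in NP, 118 to 173 in MT and 66.0 to 105 in LT. The 8 mucus epithelium markers summed to 252 to 532 TPM in NP, 2043 to 4438 in MT and 6511 to 8242 in LT. In LT this was mostly AGR2, at 5547 to 7559 TPM. Of the 6 tested, 5 were called higher from NP to MT, against 6.27% of all genes, and 5 without NP replicate 1, against 7.22%. SPDEF and CLCA1 did not exceed 2.91 TPM in NP and entered the fit only through MT and LT, which makes theirs a limited test. From MT to LT, 1 was called higher and 1 lower, against 6.73% and 22.7% of all genes. The median change there was -0.12. Without NP replicate 1 these calls were 1 and 3, against 9.78% and 32.3%. The 9 leukocyte markers with an entry summed to 4468 to 8258 TPM in NP, 8955 to 13304 in MT and 14779 to 19235 in LT, nearly all of it S100A8 and S100A9. The leukocyte list did not move as 1 group. From NP to LT limma called S100A8, S100A9 and CSF3R higher, against 11.2% of all genes. It called PTPRC, the pan-leukocyte antigen CD45, lower (-0.98 on the log2 scale), against 41.9%. The median change of the 8 tested was -0.97. CSF3R did not exceed 27.3 TPM in any animal, and which cells made S100A8 and S100A9 was not tested. When NP replicate 1 was left out, 3 were called higher and 5 lower in this comparison, against 11.3% and 49.8% of all genes. No marker of these lists was at 0 in every animal. The part of these cell types in the values of the 10 genes was not tested.

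SPOCK2 and SPARC, both of the SPARC family, behaved differently. SPARC binds collagen and takes part in fibril assembly, and SPOCK2, testican-2, is a proteoglycan that can affect the activation of matrix metalloproteinases. SPOCK2 was 88.3, 57.3 and 26.2 TPM in NP, 92.8, 154 and 119 TPM in MT and 10.1, 10.7, 8.06 and 5.29 TPM in LT. The 3 stages did not overlap, with MT highest and LT lowest. From MT to LT the mean of SPOCK2 was 14.3-fold lower, and SPOCK2 fell by 3.70 on the log2 scale (SE 0.37, limma adjusted P = 0.00162; exact permutation P = 0.0286). It was also lower in LT than in NP, by a log2 fold change of -2.49 (SE 0.37, limma adjusted P = 0.000584), and its F statistic over the stages gave the smallest P that permutations of these animals can give (exact permutation P = 0.000476).

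From NP to MT the change of SPOCK2 was 1.21 (95% interval 0.32 to 2.09), with a limma adjusted P of 0.0607 that ranged from 0.0135, without NP replicate 1, to 0.166 over the alternative settings. Of the other SPOCK genes, SPOCK3 averaged 1.42 ± 1.05 TPM in NP, 6.27 ± 5.10 in MT and 5.21 ± 2.55 in LT (SD), and rose from NP to LT by 1.36 on the log2 scale (SE 0.49, limma adjusted P = 0.0378). It entered the fit only through MT and LT, where it was higher, which makes this a limited test. SPOCK1 averaged 6.85 ± 5.98 TPM in NP, 8.09 ± 2.38 in MT and 9.96 ± 2.60 in LT (SD), and was not called.

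SPARC was 3831, 2189.6 and 2429 TPM in NP, 2416, 1903 and 1609.6 TPM in MT and 2757, 2297, 2447 and 2187 TPM in LT. The stages overlapped, and no change was called. SPARC differed by a log2 value of -0.49 from NP to MT (95% interval -0.97 to -0.00049, limma adjusted P = 0.143), 0.31 from MT to LT (-0.15 to 0.76) and -0.18 from NP to LT (-0.63 to 0.28). Between NP and LT the sign depended on the setting, with 0.04 in edgeR and in DESeq2, 0.15 after median-ratio scaling and 0.07 without NP replicate 1. In the comparisons of LT with MT and with NP, the interval of SPARC does not reach the change of SPOCK2.

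SPARCL1, a close relative of SPARC, was 756 to 2316 TPM in NP, 1533 to 2099.9 in MT and 761 to 1000.3 in LT. In MT its level was 0.635, 1.10 and 1.16 times that of SPARC, and in LT 0.294, 0.331, 0.404 and 0.457 times. SPARCL1 fell from MT to LT by 1.04 on the log2 scale (SE 0.31, limma adjusted P = 0.0309), a call that was lost in edgeR on the counts (adjusted P = 0.0975).

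POSTN, which crosslinks collagen through lysyl oxidase and BMP1 and binds tenascin-C, was present at above 3 TPM only before pregnancy. It was 4.56, 9.76 and 19.8 TPM in NP, backed by 254 to 907 reads, and 0.202, 0.375 and 0.0921 TPM in MT, backed by 5 to 15 reads. In LT it was 0.467, 0.323, 0.177 and 0.382 TPM, backed by 11 to 27 reads. All NP animals were above all pregnant animals, and MT and LT overlapped. The mean was 50.9-fold lower in MT than in NP, at 0.223 ± 0.143 TPM against 11.4 ± 7.75 TPM (SD, n = 3 each).

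On the log2(TPM + 1) scale POSTN fell by 3.14 from NP to MT (SE 0.40, limma adjusted P = 0.00126) and fell by 3.01 from NP to LT (SE 0.38, limma adjusted P = 0.000296). Leaving out single animals moved the change from NP to MT between -3.62 and -2.67. The scale understates the change of so low a gene, and edgeR on the counts put it at -5.54 (log2) for NP to MT. No change from MT to LT was called (0.13, 95% interval -0.71 to 0.98). Over the 3 stages, the exact permutation P of POSTN was 0.00476. Since POSTN entered the fit only through NP, its call in a fit with this filter is a limited test.

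TGFBI, the closest relative of periostin, had its highest mean in NP as well, but NP replicate 1 raised this mean. It was 203, 110 and 91.8 TPM in NP, 48.0 to 51.9 in MT and 77.7 to 107 in LT. MT thus lay below both other stages, while NP and LT overlapped. TGFBI fell by 1.35 on the log2 scale from NP to MT (SE 0.25, limma adjusted P = 0.00640) and rose by 0.97 from MT to LT (SE 0.23, limma adjusted P = 0.0141). POSTN had no such return, since no LT animal exceeded 0.467 TPM.

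CTGF and CYR61, now also named CCN2 and CCN1, are direct targets of YAP, TAZ and serum response factor, and CTGF is also induced by TGF-beta. CTGF was 91.8, 106 and 81.3 TPM in NP, 38.0, 28.5 and 23.5 TPM in MT and 55.7, 37.5, 17.7 and 47.2 TPM in LT. All NP animals were above all pregnant animals. CTGF fell from NP to MT by 1.62 on the log2 scale (SE 0.35, limma adjusted P = 0.0129; exact permutation P = 0.1) and fell by 1.32 from NP to LT (SE 0.33, limma adjusted P = 0.00782; exact permutation P = 0.0286). The adjusted P of the first change was 0.0562 without MT replicate 3. From MT to LT the change was 0.30 (95% interval -0.44 to 1.04), and the F statistic over the stages gave an exact permutation P of 0.00905.

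No change of CYR61 was called. It was 151, 77.1 and 39.1 TPM in NP, 76.1, 43.4 and 47.0 TPM in MT and 51.1, 108, 39.8 and 137 TPM in LT. The animals of every stage covered a wide range and overlapped. CYR61 differed by a log2 value of -0.51 from NP to MT (95% interval -1.73 to 0.70), 0.46 from MT to LT (-0.68 to 1.59) and -0.05 from NP to LT (-1.19 to 1.08). The sign of the last value was not stable, since it was 0.15 in edgeR, 0.16 in DESeq2, 0.27 after median-ratio scaling and 0.43 without NP replicate 1, none of them called. The intervals of CYR61 and CTGF overlap, and the difference between the genes was not tested. Among the other CCN genes, WISP1 fell by 0.80 from NP to MT (SE 0.22, limma adjusted P = 0.0310), lost in edgeR (0.0603), and fell by 1.16 from NP to LT (SE 0.20, limma adjusted P = 0.00129). NOV, WISP2 and WISP3 had means of 24.6, 6.38 and 0.774 TPM in NP.

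SPP1, osteopontin, is a secreted phosphoprotein of bone, epithelia and macrophages that binds integrins and CD44. It was 117, 95.3 and 86.8 TPM in NP, 59.1, 58.1 and 144 TPM in MT and 85.4, 50.9, 27.6 and 20.9 TPM in LT. The LT animals were below all NP animals, and the MT animals overlapped both. SPP1 fell from NP to LT by 1.29 on the log2 scale (SE 0.46, limma adjusted P = 0.0385; exact permutation P = 0.0571). This call was lost in edgeR and DESeq2 on the counts (adjusted P of 0.168 and 0.122), after median-ratio scaling (0.113), with no filter on low values (0.0572) and without any 1 of the NP animals or LT replicates 3 or 4 (0.0679 to 0.0933).

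The 9 macrophage markers with an entry summed to 214 to 327 TPM in NP, 168 to 194 in MT and 292 to 518 in LT. None was at 0 in every animal, and 4 of the 8 tested were called higher and 1 lower from NP to LT, against 11.2% and 41.9% of all genes, while SPP1 was lower. The counts were 4 and 1 without NP replicate 1 as well, against 11.3% and 49.8% of all genes. Of the other SIBLING genes, the bone and tooth family that SPP1 belongs to, IBSP averaged 9.81 ± 7.50 TPM in NP, 1.99 ± 0.754 in MT and 0.274 ± 0.218 in LT (SD). IBSP, bone sialoprotein, fell by 2.81 on the log2 scale from NP to LT (SE 0.46, limma adjusted P = 0.000914), though like POSTN it entered the fit only through NP, which makes this a limited test. DMP1, MEPE and DSPP did not exceed 0.0818 TPM in any animal.

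TNC, a tenascin that loosens cell attachment and is made at sites of repair, was 362, 100.4 and 83.5 TPM in NP, 158, 71.9 and 87.0 TPM in MT and 223, 98.8, 56.7 and 108 TPM in LT. The stages overlapped, and the largest spread was within NP, where replicate 1 lay 3.93-fold above the mean of the other NP animals. TNC differed by a log2 value of -0.54 from NP to MT (95% interval -1.87 to 0.80), 0.11 from MT to LT (-1.13 to 1.36) and -0.42 from NP to LT (-1.67 to 0.82). Without NP replicate 1 the change turned positive, to 0.12 from NP to MT and 0.23 from NP to LT. TNXB, the tenascin of loose connective tissue, was 13.6 to 70.5 TPM in all animals, and the neural tenascin TNR did not exceed 0.160 TPM.

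TNC and SPARC were both highest in NP replicate 1 within NP, in MT replicate 1 within MT and in LT replicate 1 within LT. The summed level of the 7 fibroblast markers with an entry was highest in the same 3 animals, at 10761, 10165 and 9437 TPM against 5379 to 7215 TPM in the others. Between 88.5% and 96.4% of this sum was COL1A1 and COL1A2, the chains of type I collagen. The other 5 markers together were 387 TPM in NP replicate 1, below the 722 and 724 TPM of the other NP animals. In MT they were 485, 487 and 403 TPM, so that replicate 1 was level with replicate 2, and in LT replicate 1 was highest, at 661 TPM against 563, 656 and 629 TPM. The replicate numbers are not known to mark a shared batch or day. The part of fibroblast content in the spread of TNC and SPARC was not tested.

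The genes whose profile over the 10 animals was most like that of each member were ranked by Pearson's r of log2(TPM + 1), a value that includes the differences between stages and the depth and makeup of each library. For THBS2 these were DLAT (r = 0.947) and DPM2 (0.945), and for THBS4 STARD5 (0.943) and NDUFA4L2 (0.935). For THBS1 they were SNORD49 (0.902) and ATP10A (0.897), for CTGF SAMD11 (0.928) and KLHDC5 (0.926), and for CYR61 KIF1C (0.942) and ATP2A2 (0.888). SPARC was most like DHDH (0.934) and COL4A1 (0.927), SPOCK2 like RCAN2 (0.975) and TBC1D8 (0.972), and TNC like DYSF (0.913) and IGFBP2 (0.879). POSTN was most like PRICKLE1 (0.984) and DYNC1I2 (0.982), and SPP1 like NAGLU (0.928) and CAD (0.927). After removing the stage means, the r of SPARC with COL4A1, a basement membrane collagen, was 0.929 and that of TNC with IGFBP2 0.921.

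Of 20 relatives of the 10 genes, 14 were tested. From NP to MT, limma called 0 of them higher and 4 lower, TGFBI, THBS3, WISP1 and IBSP, against 6.27% and 12.2% of all genes. At an unadjusted P under 0.05, 1 was higher and 5 were lower, while edgeR called 0 higher and 2 lower and DESeq2 1 higher and 4 lower. From MT to LT, 4 were higher, COMP, TGFBI, THBS3 and FSTL1, and 2 were lower, SPARCL1 and SMOC2, against 6.73% and 22.7% of all genes. In edgeR the same 4 were higher, while SPARCL1 and SMOC2 lost their calls (adjusted P of 0.0975 and 0.178) and IBSP was lower (0.0209). From NP to LT, COMP and SPOCK3 were higher and IBSP, WISP1 and SMOC2 lower, against 11.2% and 41.9% of all genes. SMOC2, a calcium-binding relative of SPARC, fell by 0.71 from NP to LT (SE 0.14, limma adjusted P = 0.00197), and FSTL1 rose by 0.37 from MT to LT (SE 0.12, limma adjusted P = 0.0398). Leaving out NP replicate 1, limma called 3 higher and 5 lower from NP to MT, 4 and 3 from MT to LT, and 3 and 4 from NP to LT. In that fit 7.22%, 9.78% and 11.3% of all genes were higher and 25.8%, 32.3% and 49.8% lower. The median change of the 14 was -0.05, 0.04 and -0.15 in the 3 comparisons.

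**Figure D4:**
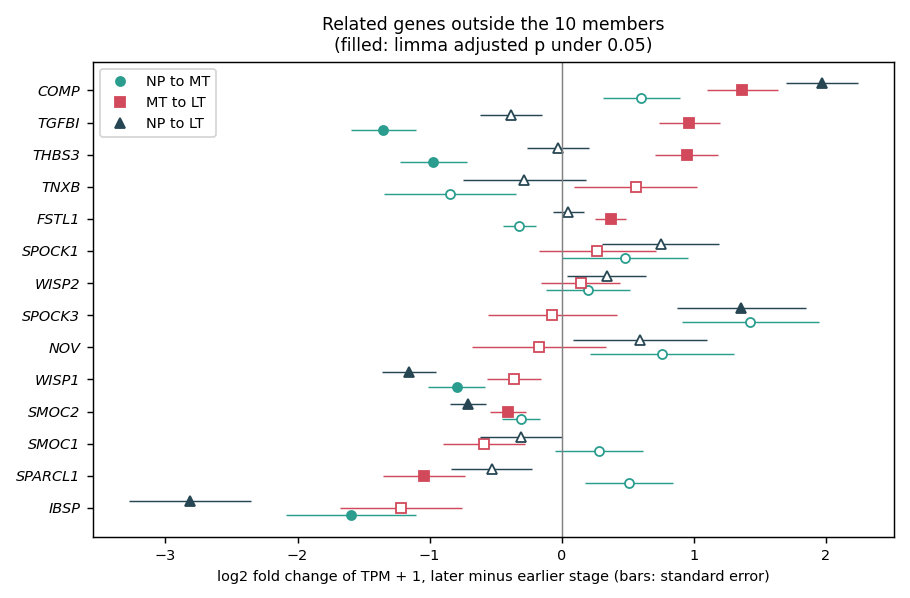
Log2 fold change of TPM + 1 with its standard error for 14 relatives of the matricellular genes in the 3 comparisons, filled where the limma adjusted P is under 0.05. COMP lies farthest to the right, at 1.97 from NP to LT, and IBSP, which entered the fit only through NP, farthest to the left, at -2.81.

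Of 15 receptors of matricellular proteins, 12 were tested, and neither limma nor edgeR called any of them from NP to MT or from MT to LT, where limma called 18.5% and 29.4% of all genes and edgeR 18.0% and 29.0%. Their median log2 fold change was -0.18, -0.13 and -0.11 in the 3 comparisons, beside -0.14, -0.16 and -0.28 over all genes. In limma 0 had an unadjusted P under 0.05 from NP to MT and 3 had one, all lower, from MT to LT, where DESeq2 called 1 higher. From NP to LT, limma called SDC4, STAB1 and ITGB8 lower, at log2 fold changes of -0.48, -0.86 and -0.68, and edgeR called none of these, while 41.9% of all genes were lower in limma and 25.8% in edgeR. The call of ITGB8 was lost without NP replicate 1 (adjusted P = 0.0611). Without NP replicate 1, limma called 0 from NP to MT and 2 higher from MT to LT, against 9.78% of all genes. It then called 2 higher and 2 lower from NP to LT, against 11.3% and 49.8%. With all animals, edgeR called CD36 and CD47, the thrombospondin receptors, higher from NP to LT (adjusted P of 0.0437 and 0.0373), against 23.6% of all genes. In limma their changes were 0.45 and -0.04 and were not called. Limma after median-ratio scaling called the same 2 higher and 0 lower, against 26.3% and 23.4% of all genes. SDC4, STAB1 and ITGB8 lost their calls after this scaling but stayed negative, at -0.16, -0.56 and -0.37.

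Genes that act upstream of CTGF and CYR61, or share their regulators, were counted in the same way, against 12.2%, 22.7% and 41.9% of all genes called lower in the 3 comparisons by limma, 7.98%, 15.6% and 25.8% by edgeR and 11.5%, 18.8% and 27.5% by DESeq2. Without NP replicate 1, limma called 25.8%, 32.3% and 49.8% of all genes lower. Its counts of lower genes in that fit were 6, 8 and 11 of the 17 YAP and TAZ targets. They were 3, 6 and 7 of the 10 Hippo factors and 2, 7 and 8 of the 10 TGF-beta genes. Of 17 tested YAP and TAZ targets, 2 were higher and 5 lower from NP to MT, 1 higher and 8 lower from MT to LT, and 2 higher and 12 lower from NP to LT. In edgeR these were 2 and 3, 1 and 4, and 3 and 8. The median change of the 17 was -0.33, -0.21 and -0.67, beside -0.14, -0.16 and -0.28 over all genes. CCDC80 fell by 1.58 from NP to MT and fell by 2.40 from NP to LT (limma adjusted P of 0.00162 and 6.0e-05), and IGFBP3 fell by 2.54 from MT to LT (limma adjusted P = 0.00669). DOCK5 fell by 1.04 from NP to LT (limma adjusted P = 0.0108), and TGFB2, a TGF-beta ligand, fell by 0.77 from NP to MT (limma adjusted P = 0.00130). Against this direction, CRIM1 and NT5E rose by 0.72 each from NP to MT (limma adjusted P of 0.0121 and 0.0484, the latter 0.0513 without NP replicate 1), and GADD45A rose by 0.74 from MT to LT (limma adjusted P = 0.0212).

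Of 10 factors of the Hippo pathway, which controls YAP and TAZ, 0 were higher in limma in each comparison, at an unadjusted P under 0.05 as well, and 2, 5 and 8 were lower. In edgeR 1, 3 and 3 were lower, and 1 was higher from NP to LT, and in DESeq2 1, 4 and 4 were lower, against the 11.5%, 18.8% and 27.5% of all genes given above, and 1 was higher from NP to LT. TEAD2, a DNA-binding partner of YAP, fell by 1.37 from NP to MT and fell by 1.86 from NP to LT (limma adjusted P of 0.00107 and 5.8e-05), and WWTR1, which encodes TAZ, fell by 0.64 from NP to LT in limma (adjusted P = 0.00121) but not in edgeR (0.0644). VGLL4, a TEAD cofactor, fell by 0.71 from NP to LT (limma adjusted P = 0.00124), and the kinase LATS1 fell by 0.63 from MT to LT (limma adjusted P = 0.0108). The median change of the 10 factors was -0.13, -0.37 and -0.53. The list mixes partners of YAP such as TEAD2 with kinases such as LATS1. Its counts therefore give no direction of pathway activity, which was not tested. Of the 11 genes fixed for this list, 10 had an entry that could be used, and YAP1 itself was not analysed here.

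Of 10 tested TGF-beta ligands, binding proteins, receptors and SMADs, 0 were higher in limma in each comparison, at an unadjusted P under 0.05 as well, and 2, 5 and 8 were lower. In edgeR 1, 4 and 5 were lower and 1, 0 and 1 higher, and in DESeq2 2, 5 and 5 were lower, against these same shares of all genes, and 1, 0 and 1 higher. LTBP1, which holds latent TGF-beta in the matrix, fell by 0.94 from NP to MT (SE 0.25, limma adjusted P = 0.0280) and fell by 1.52 from NP to LT (SE 0.24, limma adjusted P = 0.000692). LTBP2 fell by 1.17 from NP to LT (SE 0.39, limma adjusted P = 0.0281), a call lost in limma after median-ratio scaling (adjusted P = 0.0592). SMAD3 fell by 0.69 from MT to LT (SE 0.14, limma adjusted P = 0.00660), and TGFBR3 fell by 0.98 (SE 0.22, limma adjusted P = 0.0113). The median change of these 10 genes was -0.02, -0.47 and -0.60.

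Of 16 tested immediate early genes, a class that responds within minutes to serum and stretch, 0 were higher and 3 lower from NP to MT in limma (1 and 6 at an unadjusted P under 0.05), 4 were higher and 1 lower from MT to LT and 3 were higher and 3 lower from NP to LT. DESeq2 called 1 higher and 3 lower, 10 higher and 0 lower, and 5 higher and 1 lower in the same order, and edgeR 0 and 3, 6 and 0, and 5 and 1. Of all genes, 6.27%, 6.73% and 11.2% were called higher in limma, 10.1%, 13.4% and 23.6% in edgeR and 13.1%, 17.4% and 26.2% in DESeq2. Without NP replicate 1 limma called 1 and 3, 6 and 1, and 5 and 3. In that fit 7.22%, 9.78% and 11.3% of all genes were higher and 25.8%, 32.3% and 49.8% lower. Their median change was -0.23, 0.55 and 0.03. EGR1 fell by 1.62 from NP to MT (SE 0.27, limma adjusted P = 0.00395), the comparison in which CTGF fell by 1.62. FOS rose by 1.51 from MT to LT (SE 0.30, limma adjusted P = 0.00667) and JUNB by 0.95 (SE 0.15, limma adjusted P = 0.00315), while CTGF and CYR61 were not called there. Between NP and LT, KLF4 rose by 1.97 (SE 0.36, limma adjusted P = 0.00169) and NR4A1 rose by 1.48 (SE 0.38, limma adjusted P = 0.00919).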

How the data were processed

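RNA from the cervix of 10 guinea pigs, each a separate animal, was sequenced as strand-specific poly A libraries with single reads. The authors demultiplexed with CASAVA 1.8.2, aligned to the cavPor3.69 genome with TopHat2 and counted reads per Ensembl gene with HTSeq 0.5.4p1. The deposited table holds the read count and the TPM of each gene and animal, with the TPM derived by the authors from those counts. The counts entered only edgeR and DESeq2, and neither column was altered.

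Stage, given by the sample titles, was the only term in limma (eBayes with trend) on log2(TPM + 1) over 12645 genes, two-sided, with Benjamini-Hochberg adjustment. Exact permutation tests used square-root TPM. The gene lists and the 10 members were chosen with earlier results of these data known. The named genes are the members, the 2 genes most like each by r, and from each list up to 4 called genes with the largest changes. Named beyond that, after their values were seen, are SPARCL1, SMOC2, FSTL1, SPOCK1, THBS3, WISP1, the uncalled relatives, CD36, CD47, CRIM1, NT5E, GADD45A and JUNB. AGR2, SPDEF, CLCA1 and SMAD3 were also named in this way. TGFBR1, not described here, had a larger called change than SMAD3 (-0.91 from NP to LT). The fits were tested on simulated data. The alternatives were a pseudocount of 0.1, square-root TPM, no filter, median-ratio scaling, 2 stages alone, a replicate block, edgeR, DESeq2 and leaving out each animal. Same-numbered animals of different stages had a median correlation of 0.074 in their deviations from the stage means (-0.287 to 0.254), so the numbers were not taken to pair animals.

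The tools were edgeR 4.0.16, DESeq2 1.42.0 and limma 3.58.1 in R 4.3.3. No sequences or coordinates are given, as no genome of this build was used here.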

Additional observations from a re-analysis of the deposited data

How the results depend on the processing

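No change of a called gene among the 10 turned its direction under any alternative. Of 540 tests of the 10 genes under the alternatives, 29 had the opposite sign, all of them for changes that were not called. Between NP and MT, 2342 genes were called in all, and 1113 when only these 2 stages were fitted. Leaving out single animals gave 1100 (without MT replicate 3) to 4174 (without NP replicate 1), and 1 to 3 calls among the 10 members. Between MT and LT, 3723 genes were called, and 1946 (without MT replicate 2) to 5323 when single animals were left out, with 1 to 3 of the 10 members. With the replicate number as a block, 1693 genes and 1 of the 10 were called from MT to LT, and with no filter on low values 1 of the 10. In each case SPOCK2 remained, and the calls of THBS2 and THBS4 were lost. The block also raised the adjusted P of THBS4 from NP to LT to 0.0575 and that of SPP1 to 0.132, and the cause was not tested. Between NP and LT, 6718 genes were called, and 5304 to 7726 when single animals were left out, with 4 to 7 of the 10. Without NP replicate 1 the 4 were CTGF, POSTN, SPOCK2 and THBS4. The spread of TNC and CYR61 between animals limits what can be said of them, with 95% intervals that reach 1 or more on the log2 scale in at least 1 direction.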

Other observations

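Endothelial transcripts were lower late in pregnancy. The 7 endothelial markers with an entry were all called lower from NP to LT by limma and by edgeR, against 41.9% and 25.8% of all genes. From MT to LT limma called 6 of them lower and edgeR 4, against 22.7% and 15.6% of all genes. In the fit without NP replicate 1, limma called all 7 lower in both comparisons, against 49.8% and 32.3% of all genes.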
